A study of Homo sapiens with 8 samples.

Results

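Untreated indisulam-resistant Panc10.05 cells were compared with untreated parental Panc10.05 cells. Panc10.05 is a widely used cell line from a human pancreatic cancer. Indisulam, a sulfonamide, glues RBM39, an RNA splicing protein, to a ubiquitin ligase whose substrate receptor is DCAF15, and RBM39 is then degraded. The comparison used 4 of the 8 RNA-seq libraries of the series, 2 labelled Parental untreated and 2 labelled Resistant untreated, and these were taken from the labels without the use of any measured value. According to the study's methods, the resistant line was obtained by growth in rising indisulam concentrations, and its untreated libraries came from cells on a drug holiday. Parental untreated cells had no stated drug exposure. Lasting differences between the lines and effects of drug withdrawal therefore cannot be told apart in these 4 libraries. The study describes the 2 libraries of a group as technical replicates, so p-values measure the spread between libraries. Panc10.05 is the name in the sample titles, whereas the notes on growth and treatment name A549, a lung cancer line, and the titles were followed. Whether the resistant line was a clone or a mixed population is not given in the sources used here. The other 4 libraries were from cells on 2 µM indisulam, for 18 h in parental cells and without interruption in resistant cells, and were used to see whether a difference off drug was also found on drug. They also entered the fit behind every test, and so share in its filter, scaling and estimate of spread. With the 4 untreated libraries alone 9949 genes were called.

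Type I and type III interferons act through cell-surface receptors and the JAK kinases to activate transcription factors, among them STAT2 and IRF9, which bind the interferon-stimulated response element in promoters and switch on antiviral genes. Most pancreatic cancers are ductal adenocarcinomas, whose cells express the keratins of simple and ductal epithelium. They are commonly placed on an axis from a classical state, with mucin and gut-like genes, to a basal-like state, with squamous keratins and matrix genes. Off drug, the highest list medians were those of antiviral genes, chemokines and mesenchymal genes, and the lowest among lists with at least 5 tested members were those of mitotic and cholesterol synthesis genes.

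Gene reads came to 108002436 and 105655653 for the parental libraries and to 74689044 and 65266253 for the resistant libraries. Levels are given as CPM, which are TMM-scaled counts relative to library size, and always as the 2 parental and then the 2 resistant libraries. The correlation of log2(CPM + 1) across genes was 0.9996 between the parental libraries, 0.9993 between the resistant libraries and 0.9849 to 0.9853 between the lines. Genes are not independent replicates, so these values only describe the libraries. The ductal markers KRT7, KRT8, KRT18, KRT19 and EPCAM were all between 325.2 and 4184 CPM, while 4 of the 14 ductal markers (CEACAM5, CEACAM6, TSPAN8 and S100P) had 0 to 3 reads per library. Lung markers were nearly absent. The lung lineage factor NKX2-1 and the surfactant genes SFTPA1, SFTPA2, SFTPB and SFTPD had 0 reads in all 4 libraries. No A549 profile was compared here, so these markers do not settle which line was used. Of the 11 acinar and endocrine markers none had enough reads to test. The blood marker PTPRC and the fibroblast markers DCN and LUM also had 0 reads.

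Of 16661 genes tested with edgeR's quasi-likelihood test, 10021 (60.1%) had an adjusted p under 0.05. Of these, 5047 genes were higher in resistant cells (30.3%) and 4974 lower (29.9%). Both shares are the background for the list counts given below. The split into higher and lower depends on the scaling, which centres the fold changes. With library totals alone it was 4599 higher and 5415 lower. The median log2 fold change of all tested genes was -0.015. Differences over 1 log2 unit were less frequent, with 1155 genes higher (6.93%) and 680 lower (4.08%). These classes held different kinds of genes. Of the genes over 1 log2 unit higher, 83.9% were protein coding and 12.3% were long noncoding RNAs, against 75.0% and 16.2% of all tested genes. Of those over 1 log2 unit lower, 42.9% were protein coding and 40.3% were long noncoding RNAs. Low levels were common in both, as 41.6% of the higher and 66.3% of the lower genes stayed under 1 CPM in both groups. In 129 of the higher genes both parental libraries had at most 3 reads. Reads matching no gene made up 5.81% and 5.94% in the parental and 4.43% and 5.11% in the resistant libraries. On drug the order was reversed, at 4.51% and 4.58% against 5.78% and 5.85%. With all libraries thinned to the smallest total, 1148 genes were over 1 log2 unit higher and 597 lower. Whether these library differences bear on the falls was not tested.

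**Figure D1:**
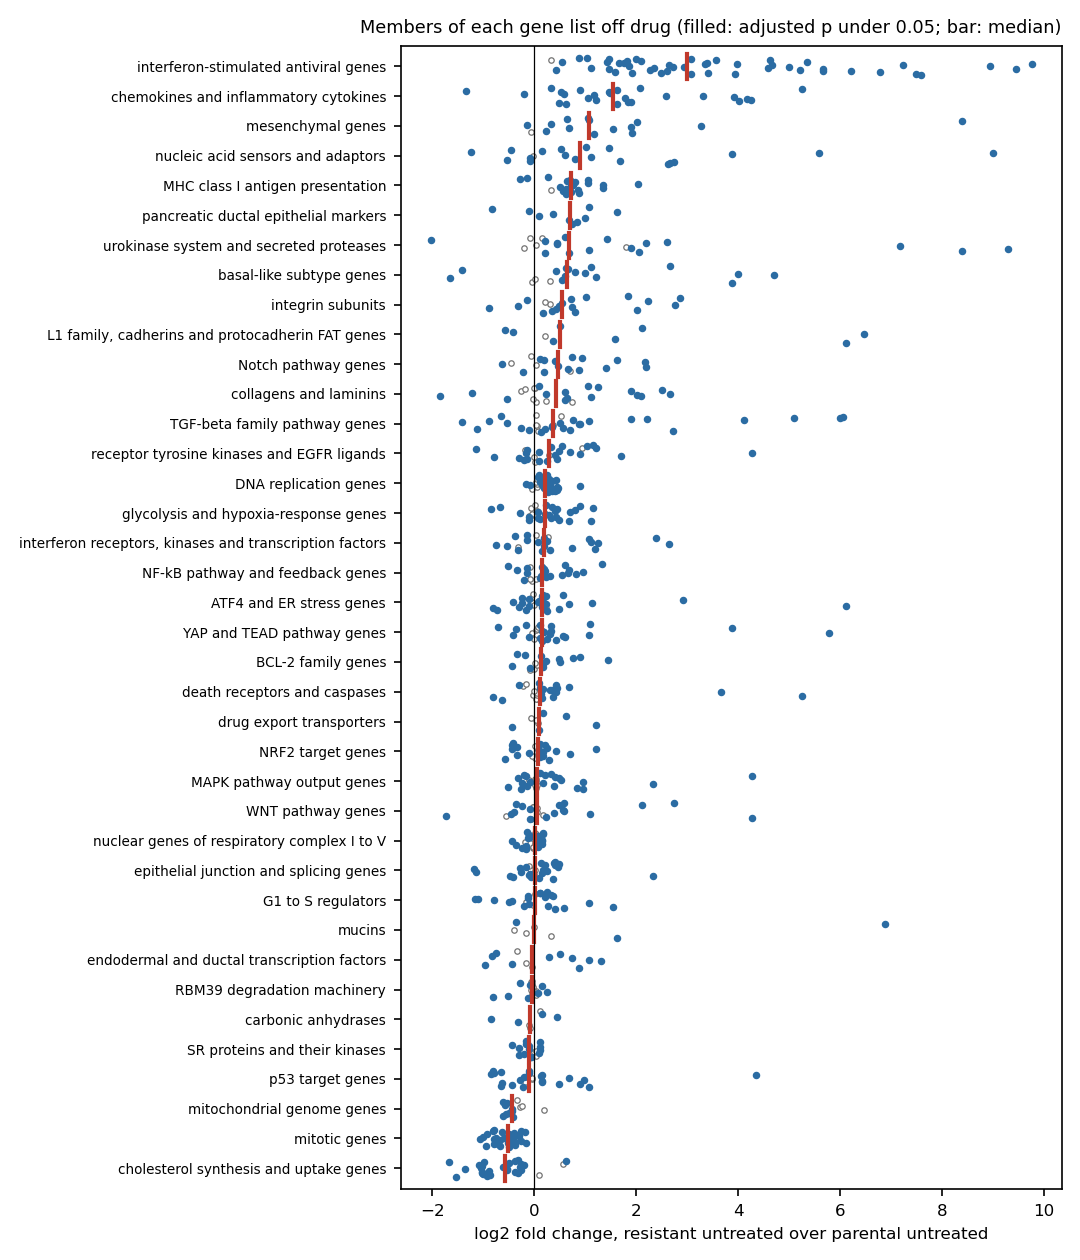
Log2 fold change (x axis, resistant untreated over parental untreated) of each tested member of 38 gene lists with at least 5 tested members, ordered by median (y axis). Filled points have an adjusted p under 0.05, open points do not, and the vertical bar is the list median, which ran from 3.0 for antiviral genes to -0.58 for cholesterol genes.

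Among the 12 largest rises in protein-coding genes with at least 5 CPM in the higher group, most belonged to a list of interferon-stimulated antiviral genes. The other members included matrix and protease-system genes. EPSTI1, an interferon-inducible gene of uncertain biochemical role (chr13:42886388-42992271, minus strand), had 2 and 1 reads in the parental libraries and 981 and 873 in the resistant libraries. Its ratio of scaled reads was 961.7, with an exact 95% counting interval of 328.6 to 4668. MX2, a dynamin-like GTPase that restricts viruses, had 3 and 0 reads against 752 and 732. CMPK2, a mitochondrial nucleotide kinase, had 1 and 3 reads against 743 and 618, but it overlaps RSAD2, to which 26.1% of their joint reads were assigned. None of these genes was more than barely detected in parental cells. The antiviral group in this top set also contained OAS1, OAS2, XAF1 and IFI6. The lysosomal membrane gene LAMP3, which is not in the antiviral list, was in the top set as well.

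The other 4 were SERPINB2, TNC, MARCKSL1 and SRGN. SERPINB2, which encodes plasminogen activator inhibitor 2, was at 0.0914 and 0.103 CPM in parental cells and at 32.4 and 33.4 in resistant cells (log2 fold change 8.38 ± 0.10, SE). TNC, the matrix glycoprotein tenascin-C, had 3 and 2 reads against 594 and 545, a ratio of 354.5 (counting interval 151.5 to 1094). MARCKSL1, an actin-binding protein, went from 0.100 and 0.140 to 12.4 and 12.3 CPM. SRGN, the secretory granule proteoglycan serglycin, went from 0.0822 and 0.0561 to 6.52 and 6.98 CPM. Between the lines on drug the log2 fold changes of these 4 genes were 8.49, 8.34, 7.07 and 6.83.

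The largest falls were smaller in size. DKK1, a secreted WNT antagonist, was at 64.9 and 64.9 CPM in parental cells and at 19.9 and 19.2 in resistant cells (log2 fold change -1.73 ± 0.036, SE, adjusted p = 6e-22). GDA, which encodes guanine deaminase, fell from 51.2 and 50.9 to 11.2 and 11.3 CPM, and FBP1, a gluconeogenic enzyme, from 5.15 and 4.90 to 1.22 and 1.22 CPM. Both lie on chromosome 9, where most genes were lower. GPR35, a G protein-coupled receptor, had the largest fall, from 18.0 and 17.0 to 1.85 and 2.26 CPM. It shares exons with CAPN10, to which 71.1% of their joint reads were assigned, so its value is uncertain. The other falls were of ZNF626, PLCE1, GALNT18, SEMA3F, ALPK3, CRACD, BMPR1B and the sterol regulator INSIG1, with log2 fold changes between -2.51 and -1.67.

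All 48 members of a list of interferon-stimulated antiviral genes were tested, and 47 were higher and 0 lower, where 30.3% of all genes were higher. The median log2 fold change was 3.0, against -0.015 for all genes, and 44 exceeded 1 log2 unit. The summed level of the list was 1701 and 1691 CPM in the parental libraries and 5772 and 5821 in the resistant libraries. GBP2 was the member that did not pass the test (log2 fold change 0.33, adjusted p = 0.095). The list comprises double-stranded RNA-activated synthetases (OAS1 to OAS3), dynamin-like GTPases (MX1, MX2), translation-blocking IFIT proteins, membrane IFITM proteins and the ISG15 conjugation system.

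OAS1, which makes the 2-5A messenger that activates RNase L (chr12:112905856-112933219, plus strand), was at 0.320 and 0.318 CPM in parental cells and at 63.9 and 59.2 in resistant cells (log2 fold change 7.59 ± 0.086, SE, adjusted p = 4.5e-27). OAS2 went from 0.612 and 0.627 to 111.0 and 111.5 CPM. IFI6, an endoplasmic reticulum protein that restricts flaviviruses, went from 0.621 and 0.505 to 62.7 and 62.5 CPM. Parental levels of these genes were low but measurable, and the groups were far apart. MX1 was at 0.512 and 0.402 against 23 and 23.6 CPM (log2 fold change 5.67 ± 0.096). IFIT1, which binds viral RNA without a fully methylated cap, was at 7.86 and 7.26 against 81.8 and 79.2 CPM (3.41). ISG15, a ubiquitin-like modifier, was at 13.4 and 12.4 against 62.3 and 69.1 CPM (2.34). The RNA editor ADAR rose less and went from 337.1 and 336.9 to 616.3 and 621.5 CPM (0.88). The IFITM genes are close copies of each other, so their reads may be shared.

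The promoters of the antiviral genes shared a sequence feature. The core of the interferon-stimulated response element, taken as GAAA, any 2 bases and GAAA again, was searched on both strands from 250 bases before to 50 bases after the start site, in RefSeq promoters of GRCh38.p14. It was present in 27 of 37 antiviral promoters (73.0%) and in 313 of 11146 promoters of tested genes (2.81%). Among genes over 1 log2 unit higher the share was 7.62%, and it was 4.41% without the antiviral list. Among genes over 1 log2 unit lower it was 2.84%. The following stretches are from antiviral genes with some of the largest rises, with the core in capitals and the strand of the gene.
EPSTI1 (chr13:42992257-42992316, minus): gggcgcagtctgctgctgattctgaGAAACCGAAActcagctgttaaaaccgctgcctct
IFI6 (chr1:27672314-27672373, minus): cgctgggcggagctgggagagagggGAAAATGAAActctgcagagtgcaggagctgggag
IFI44L (chr1:78620350-78620409, plus): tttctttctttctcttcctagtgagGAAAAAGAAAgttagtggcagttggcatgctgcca
IFI27 (chr14:94110616-94110675, plus): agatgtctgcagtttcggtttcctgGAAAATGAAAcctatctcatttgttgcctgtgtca
IFITM1 (chr11:313975-314034, plus): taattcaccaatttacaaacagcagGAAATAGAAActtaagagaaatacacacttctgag
The cores in capitals lay 50 bases before the start site in EPSTI1, 156 in IFI6, 73 in IFI44L, 95 in IFI27 and 40 in IFITM1. IFI6 had further cores 115 and 93 bases before the start site. IFI27 had another 108 bases before it, on the other strand and in lower case in the stretch above. The stretch of IFI44L occurred a second time, with its core 164 bases before the start site. These letters were not in the window of CMPK2, OAS1, XAF1, RSAD2, SAMD9L, PARP9, HERC6, IFI35, SAMHD1 or ADAR. IFI44L, an interferon-inducible gene, was at 0.502 and 0.627 against 41.4 and 42.1 CPM (6.21). Antiviral promoters were also poorer in CpG, with a median observed over expected ratio of 0.377, against 0.837 for all promoters. The AP-1 site TGANTCA was in 8.41% of promoters over 1 log2 unit higher, 7.89% of those lower and 4.87% of all. The antioxidant response element core TGACNNNGC was in 14.5%, 18.9% and 15.5%. Both were also searched on both strands, and the patterns can match the same bases.

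The transcription factors IRF9 and STAT2 were higher, whereas the kinases of the pathway were mixed. IRF7, another factor of the list, had 0 and 4 reads in the parental and 0 and 1 in the resistant libraries, too few to test. Of 22 tested receptors, kinases and transcription factors, 13 were higher and 6 lower (median 0.20). IRF9, the DNA-binding partner of the STAT proteins, was at 0.886 and 0.777 against 3.98 and 4.73 CPM (log2 fold change 2.38 ± 0.13, SE), and STAT2 at 38.9 and 39.2 against 90.1 and 97.7 CPM (1.26 ± 0.042, adjusted p = 1.4e-15). The kinases TYK2 (-0.75) and JAK2 (-0.54) fell, and both lie in windows of chromosomes 19 and 9 with lower medians of -0.41 and -0.51. JAK1 rose slightly (0.19). Among the receptors, IFNGR2 (1.19, with TMEM50B holding 37.8% of their joint reads), IFNLR1 (0.75) and IFNAR1 (0.16) rose.

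Interferon ligands were close to the detection limit. Of 11 ligands, IFNE alone had enough reads to test, and it fell from 2.09 and 2.21 to 0.621 and 0.755 CPM (log2 fold change -1.65 ± 0.15, adjusted p = 1.4e-09). IFNB1, the interferon made by most infected cells, had 0 and 0 reads in the parental libraries and 9 and 5 in the resistant libraries, which is 7.26 times a floor of 3 reads over the group, and the exact 95% counting interval of the ratio starts at 5.16. IFNL1, a type III interferon, had 2 and 1 reads against 12 and 8, a ratio of 10.4 (counting interval 3.08 to 54.5). The other 8 ligands had at most 1 read in any of the 4 libraries. Reads here carry no molecular identifiers and may be copies of one molecule, so that intervals and floors cover counting error only.

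The sensors that detect viral or self nucleic acids were mostly higher, with 14 of 20 tested members higher and 5 lower (median 0.90). RIGI, a sensor of uncapped RNA, was at 23.7 and 21.2 against 140.2 and 138.8 CPM (2.63 ± 0.041), although it lies on chromosome 9. IFIH1, which encodes the long double-stranded RNA sensor MDA5, was at 11.2 and 10.9 against 69.6 and 70.8 CPM (2.67). IFI16, a DNA sensor, was at 4.70 and 4.48 against 67.1 and 67.0 CPM (3.87), and ZBP1, a Z-form nucleic acid sensor, had 0 reads in both parental libraries and 50 and 55 in the resistant libraries, which is 54.5 times the floor (interval from 43.5). STING1 rose by 1.11, TBK1 did not pass the test (-0.03), and MAVS (-0.08) and TICAM1 (-0.53) fell. TICAM1 lies in a chromosome 19 window with a median of -0.5. CGAS was at 84.4 and 86.8 against 78.5 and 82.0 CPM (-0.09), a difference that did not pass without parental replicate 2 (adjusted p = 0.16) or resistant replicate 1 (adjusted p = 0.17).

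Antigen presentation by MHC class I showed the same direction at a smaller size. Of 21 members 18 were higher and 2 lower (median 0.72), and the summed level was 5492 and 5425 CPM in parental cells and 8076 and 8080 in resistant cells. HLA-B was at 867.8 and 855.1 against 1575 and 1602 CPM (0.88 ± 0.029), and B2M, the invariant light chain, at 758.4 and 743.8 against 1185 and 1141 CPM (0.63). The peptide transporter TAP1 was at 62.3 and 60.0 against 155.9 and 155.1 CPM (1.35). The response element core was in 9 of 17 promoters of this list (52.9%). NLRC5, a transactivator of these genes, was lower (-0.27), as was the chaperone CALR (-0.15). HLA genes are near-identical in parts, so reads may be shared among them.

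**Figure D2:**
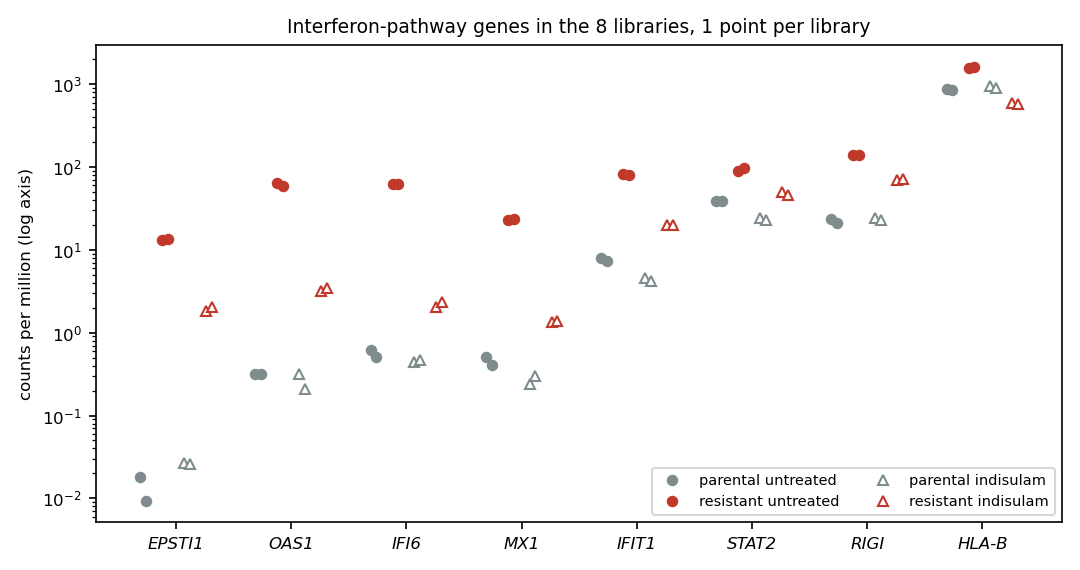
CPM (y axis, log scale) of 8 interferon-pathway genes (x axis) in each of the 8 libraries, with 1 point per library, grey for parental and red for resistant cells, filled circles off drug and open triangles on indisulam. The resistant untreated libraries were the highest for each gene, and for HLA-B the order of the lines was opposite on drug. EPSTI1 points of the parental untreated libraries rest on 2 and 1 reads.

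Chemokines and inflammatory cytokines were higher in 24 of 26 tested members and lower in 2 (median 1.55). Of all tested genes, 30.3% were higher and 29.9% lower. CCL5, a T cell chemokine, was at 0.201 and 0.112 against 2.98 and 2.69 CPM (4.17 ± 0.20), and CXCL11, an interferon-induced ligand of CXCR3, at 0.0822 and 0.0281 against 1.12 and 1.06 CPM (4.26 ± 0.32). CXCL8, the neutrophil chemokine, was at 1.77 and 1.88 against 6.87 and 6.14 CPM (1.84). TNFSF10, which encodes the death ligand TRAIL, was at 0.0640 and 0.0281 against 1.84 and 1.80 CPM (5.25). Most of these genes remained at low levels. CXCL11, TNFSF10 and IL1A were so low in parental cells that they passed the low-count filter through the resistant libraries. Such members could hardly be called lower. IL1A had 1 and 2 reads against 23 and 9, a ratio of 16.6 with an interval of 5.19 to 84.7, and IL18 was lower (-0.20). The NF-kB pathway and feedback genes showed a weaker pattern, with 14 of 23 higher and 5 lower (median 0.16). TNIP1, an inhibitor of NF-kB signalling, rose from 132.4 and 127.8 to 331.9 and 322.7 CPM (1.33), whereas the kinase gene CHUK fell (-0.51) together with its chromosome 10 window, which had a median of -0.34.

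Ductal keratins remained highly expressed in resistant cells. Of the 10 ductal markers with enough reads to test, 8 were higher and 2 lower (median 0.71), and the summed level rose from 6828 and 6693 to 11303 and 11247 CPM. KRT7 (chr12:52232520-52252186, plus strand) was at 747.0 and 755.2 against 1481 and 1502 CPM (log2 fold change 0.99 ± 0.029, SE, adjusted p = 3.9e-19), and KRT19 at 335.4 and 325.2 against 531.1 and 527.9 CPM (0.68). SOX9, a ductal progenitor factor, was at 71.5 and 71.6 against 145.9 and 155.9 CPM (1.08). The cell-surface mucin MUC1 rose from 5.12 and 4.89 to 14.9 and 16.2 CPM (1.63). Against this direction, ELF3, an epithelial transcription factor, fell from 7.59 and 7.35 to 4.36 and 4.10 CPM (-0.82), but its antisense partner ELF3-AS1 held 28.5% of their joint reads. CLDN4 (-0.10) and EPCAM (0.10) differed little. CLDN4 did not pass without parental replicate 1 (adjusted p = 0.12) and EPCAM did not without resistant replicate 1 (adjusted p = 0.11).

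Subtype genes divided sharply by detection. Of 23 classical genes only CTSE, AGR2 and MYO1A had enough reads to test. CTSE, the gastric protease cathepsin E, rose from 0.603 and 0.692 to 1.62 and 1.59 CPM (1.31), while AGR2 had 10 and 10 reads against 1 and 2, a ratio of 0.233 (interval 0.0444 to 0.787) that lost its call without parental replicate 1, parental replicate 2 or resistant replicate 1 (adjusted p = 0.060, 0.064 and 0.18). Of 24 basal-like genes 18 were tested, and 13 were higher and 2 lower (median 0.65). VGLL1, a TEAD cofactor, was at 1.68 and 1.72 against 25.3 and 24.7 CPM (3.88 ± 0.070, adjusted p = 2.9e-23). KRT17, a keratin of basal epithelium, was at 0.420 and 0.402 against 2.54 and 2.73 CPM (2.67), and the EGFR ligand AREG at 23.9 and 23.3 against 55.4 and 54.6 CPM (1.22). The basal-like members FGFBP1 (-1.41) and DHRS9 (-1.66) were lower, and S100A2 did not pass the test (-0.04 ± 0.046).

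Endodermal and ductal transcription factors were mixed, with 6 of 13 tested higher and 4 lower (median -0.04). GATA6, a factor of the classical state, was at 2.74 and 2.61 against 5.04 and 4.73 CPM (0.87 ± 0.092). KLF4 fell from 68.4 and 66.8 to 41.3 and 39.5 CPM (-0.74), in a chromosome 9 window with a median of -0.68. HNF4A and CDX2 had 0 reads in all 4 libraries. Of 7 tested mucins 2 were higher and 1 lower, and MUC16, the CA-125 antigen, had 0 reads in parental cells against 15 and 9 in resistant cells, which is 12.4 times the floor (interval from 9.37). Markers of other cell types were absent or low. Of 4 tested blood markers, HBB was at 0.448 and 0.580 against 1.36 and 1.09 CPM and CSF1R at 5.38 and 5.6 against 2.92 and 2.93 CPM, with PTPRC, CD3E and MS4A1 at 0 reads. Of 10 fibroblast markers 2 were tested, with ACTA2 lower (-1.05, but FAS held 96.3% of their joint reads) and COL1A1 at 1.61 and 1.48 against 1.34 and 1.85 CPM.

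Mesenchymal genes with enough reads to test were mostly higher, whereas epithelial genes were mixed. Of 27 mesenchymal genes 15 were tested, and 13 were higher and 1 lower (median 1.08). The other 12 had too few reads to test in either line. TWIST1, TWIST2, PRRX1, LOX, CDH11, POSTN, COL5A1, COL6A2 and WNT5A had 0 reads in all 4 libraries. CDH2 had 5 and 9 reads against 4 and 3, ZEB2 0 and 1 against 0 and 0, and SPARC 0 and 0 against 3 and 2. Of 27 tested epithelial junction and splicing genes 13 were higher and 10 lower (median 0.01). ITGA5, the fibronectin receptor subunit, was at 7.92 and 7.77 against 32.6 and 31.0 CPM (log2 fold change 2.02 ± 0.046, SE, adjusted p = 3e-21). VIM, the intermediate filament of mesenchymal cells, had only 39 and 30 reads against 52 and 48 (1.17 ± 0.23), and its antisense partner VIM-AS1 held 21.8% of their joint reads. CDH1, which encodes E-cadherin, was at 201.5 and 200.5 against 260.8 and 256.7 CPM (0.36 ± 0.027, adjusted p = 3.4e-11), and CLDN1 rose from 0.274 and 0.225 to 1.12 and 1.42 CPM (2.33). The polarity gene CRB3 fell (-1.18), in a chromosome 19 window with a median of -0.50, and ZEB1, a repressor of CDH1, did not pass the test (-0.06 ± 0.067), with ZEB1-AS1 holding 61.3% of their joint reads. AXL, a receptor kinase of mesenchymal cells, was at 1153 and 1130 against 1045 and 1033 CPM (-0.14).

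Adhesion and matrix genes were predominantly higher. Of 19 tested integrin subunits 14 were higher and 3 lower (median 0.54), and of 24 collagens and laminins 13 were higher and 3 lower (median 0.43). ITGB6, the epithelial integrin subunit that activates TGF-beta, was at 0.703 and 0.730 against 5.37 and 4.96 CPM (2.85 ± 0.12). LAMA3, the alpha chain of laminin-332, was at 26.7 and 27.9 against 155.8 and 154.5 CPM (2.51 ± 0.033, adjusted p = 8e-26). The hemidesmosomal collagen COL17A1 moved the other way, from 33.4 and 33.5 to 14.2 and 14.4 CPM (-1.23 ± 0.042), in a chromosome 10 window with a median of -0.34. L1CAM, a neural adhesion molecule (chrX:153861514-153886173, minus strand), was at 0.347 and 0.290 against 21.9 and 22.8 CPM (6.12 ± 0.087). CDH3, P-cadherin, was at 40.7 and 39.2 against 121.2 and 117.3 CPM (1.58), whereas ALCAM fell (-0.58).

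Of 21 tested members of the urokinase system and secreted proteases 15 were higher and 1 lower (median 0.68). SERPINE2, a protease inhibitor known as nexin-1, had 0 reads in both parental libraries and 66 and 64 in the resistant libraries, which is 67.4 times the floor (interval from 54.1). MMP9, a gelatinase, had 3 and 4 reads against 352 and 324 (0.0274 and 0.0374 against 4.75 and 4.99 CPM). PLAU, the urokinase itself, was at 713.6 and 697.5 against 836.2 and 810.6 CPM (0.22 ± 0.028). TMPRSS4, a membrane serine protease, was the lower member (-2.03 ± 0.20).

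The medians of the growth factor and developmental signalling lists lay between 0.05 and 0.46. In the TGF-beta family 19 of 31 were higher and 7 lower (median 0.36). TGFBI, a matrix protein induced by TGF-beta, was at 25.7 and 25.3 against 450.0 and 440.8 CPM (log2 fold change 4.12 ± 0.032, SE, adjusted p = 8e-30), and INHBA, an activin subunit, at 1.43 and 1.46 against 48.2 and 51.0 CPM (5.10 ± 0.059). The inhibitor SMAD7 rose by 0.90. The BMP-responsive genes ID2 (-1.42) and ID3 (-0.88) and the coreceptor gene TGFBR3 (-1.12) fell, while BMP4 itself had 0 and 5 reads against 102 and 123.

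Receptor tyrosine kinases and EGFR ligands were higher in 15 of 27 and lower in 7 (median 0.28). EGFR was at 386.4 and 394.1 against 386.7 and 402.8 CPM (0.02 ± 0.028, adjusted p = 0.64), and MET, the hepatocyte growth factor receptor, was lower (-0.21). GAS6, the ligand of AXL, was at 123.4 and 120.2 against 265.2 and 280.2 CPM (1.16 ± 0.032). Genes induced by MAPK signalling were higher in 14 of 29 and lower in 8 (median 0.06). The feedback phosphatases DUSP6 (0.84) and DUSP4 (0.96) and the early gene EGR1 (0.96) rose, SPRED3 rose from 1.55 and 1.59 to 7.87 and 7.85 CPM (2.32), and FOSL1 (-0.09), SPRY1 (-0.52) and DUSP5 (-0.25) fell.

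In the WNT list 10 of 25 were higher and 7 lower (median 0.05). RNF43, which removes WNT receptors from the surface, rose from 0.119 and 0.131 to 2.34 and 2.57 CPM (4.28 ± 0.20), in contrast to the fall of DKK1. In the Notch list 13 of 19 were higher and 2 lower (median 0.46). The ligand JAG2 rose from 2.17 and 1.90 to 5.21 and 5.56 CPM (1.40 ± 0.094) and the coactivator MAML2 from 9.98 and 9.27 to 28.5 and 30.7 CPM (1.62 ± 0.050). NOTCH1 was lower (-0.22). In the YAP and TEAD list 16 of 26 were higher and 5 lower (median 0.15). AMOT, which binds YAP at junctions, was at 0.0914 and 0.215 against 8.86 and 8.13 CPM (5.79 ± 0.16), and the target CCN1 at 452.9 and 455.9 against 702.9 and 680.6 CPM (0.61), while the target ANKRD1 was lower (-0.41).

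Cell cycle genes split by phase. Of 32 DNA replication genes 25 were higher and 2 lower (median 0.22), with no member past 1 log2 unit. All 30 mitotic genes were lower, where 29.9% of all genes were lower (median -0.52), and their summed level was 6743 and 6730 CPM in parental cells and 4598 and 4459 in resistant cells. CCNB1, the mitotic cyclin, was at 536.0 and 532.2 against 348.8 and 320.1 CPM (log2 fold change -0.68 ± 0.038, SE, adjusted p = 9.1e-11). CENPE, a kinetochore motor, was at 152.6 and 158.0 against 73.2 and 75.5 CPM (-1.06 ± 0.072), and the proliferation marker MKI67 at 837.0 and 834.9 against 431.1 and 449.5 CPM (-0.93 ± 0.10). In contrast, the helicase subunit MCM5 was at 188.5 and 187.1 against 251.0 and 262.5 CPM (0.45 ± 0.033), and CCNE1, the cyclin of S phase entry, rose from 4.18 and 4.25 to 12.5 and 12.3 CPM (1.55 ± 0.062). The G1 to S regulators as a whole were mixed, with 11 of 23 higher and 9 lower. Cells in mitosis and transcripts per cell cannot be told apart in bulk RNA.

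Genes of p53 and of apoptosis also went both ways. Of 25 p53 targets 10 were higher and 12 lower (median -0.11). CDKN1A, the p21 inhibitor, was at 25.7 and 24.0 against 52.9 and 52.4 CPM (1.08 ± 0.039), whereas MDM2 (-0.22) and CCNG1 (-0.66) fell. Of 17 BCL-2 family genes 9 were higher and 4 lower (median 0.14). BCL2L1, which encodes BCL-xL, was at 413.5 and 410.7 against 413.4 and 403.0 CPM (-0.01 ± 0.027, adjusted p = 0.69). The BH3-only genes PMAIP1 (0.89), BMF (1.44) and HRK (0.77), which promote apoptosis, rose. The effector BAX fell from 129.9 and 128.4 to 96.0 and 94.9 CPM (-0.44 ± 0.030). MCL1 was slightly higher (0.17) and BCL2 did not pass the test (-0.08, adjusted p = 0.33). Among 25 death receptor and caspase genes 14 were higher and 3 lower, with the decoy receptor gene TNFRSF10D lower (-0.81).

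Cholesterol synthesis and uptake genes were lower in 25 of 28 tested members and higher in 1 (median -0.58). These genes are switched on together by the transcription factor SREBP2 when membrane cholesterol is low. HMGCS1, an early enzyme of the pathway, was at 325.1 and 311.6 against 111.2 and 107.7 CPM (log2 fold change -1.54 ± 0.032, SE, adjusted p = 4.8e-22). MSMO1, a sterol methyl oxidase, was at 299.3 and 289.7 against 119.2 and 110.1 CPM (-1.36 ± 0.041). The exporter ABCA1 was the member that rose (0.63 ± 0.068). Without members in windows with shifted medians, 24 of 26 were lower and the median was again -0.58.

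Other metabolic lists were closer to the median of all genes. Of 29 glycolysis and hypoxia-response genes 18 were higher and 5 lower (median 0.22), with the glucose transporter SLC2A1 at 60.4 and 58.5 against 129.3 and 129.1 CPM (1.12 ± 0.030) and VEGFA at 67.9 and 66.6 against 144.5 and 155.3 CPM (1.16 ± 0.033). Nuclear respiratory genes were even, with 9 of 32 higher and 10 lower (median 0.01). Genes of the mitochondrial genome were lower in 9 of 13 (median -0.44), with summed levels of 37168 and 38631 against 27142 and 31387 CPM. MT-ND2 was at 2095 and 2255 against 1319 and 1504 CPM (-0.62 ± 0.12), which did not pass without parental replicate 2 (adjusted p = 0.057) or resistant replicate 1 (adjusted p = 0.059). MT-CO3 (-0.57) did not pass without parental replicate 1, parental replicate 2 or resistant replicate 1 (adjusted p = 0.062, 0.079 and 0.084). NRF2 targets were higher in 11 of 22 and lower in 7, and ATF4 and endoplasmic reticulum stress genes were higher in 17 of 30 and lower in 9. Drug export transporters were higher in 4 of 8 tested and lower in 1. ABCC3 rose from 37.0 and 36.6 to 83.2 and 86.9 CPM (1.21 ± 0.039). The exporter genes ABCB1 (0 and 1 against 1 and 1 reads) and ABCG2 (2 and 1 against 2 and 0 reads) had too few reads to test. Of 7 carbonic anhydrases, a family that binds sulfonamides, 2 were higher and 2 lower.

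The genes through which indisulam acts were also examined. Of 17 genes of RBM39 degradation 3 were higher, 5 lower and 9 not called (median -0.04). DCAF15, the substrate receptor (chr19:13952509-13961449, plus strand), was at 41.6 and 42.4 CPM in parental cells and at 23.7 and 24.6 in resistant cells (log2 fold change -0.80 ± 0.040, SE, adjusted p = 1.6e-14). DDA1, an accessory subunit of the ligase, was at 51.9 and 51.6 against 35.5 and 36.8 CPM (-0.52 ± 0.037). Both lie between 10 and 20 Mb of chromosome 19, where the median gene was at -0.41. RBM39 (chr20:35701347-35742312, minus strand) was at 331.9 and 336.5 against 298.8 and 310.9 CPM (-0.13 ± 0.029), and CAND1, the exchange factor of cullin ligases, at 246.3 and 249.3 against 252.9 and 251.9 CPM (0.03, adjusted p = 0.43). Of 19 SR proteins and their kinases 4 were higher and 11 lower (median -0.10), with SRPK1 at 318.1 and 322.6 against 302.1 and 296.9 CPM (-0.10).

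Differences were unevenly placed on the chromosomes. Medians were taken in 227 windows of 10 Mb with at least 20 genes at a mean of 1 CPM or more, and 19 windows were below -0.3 and 2 above 0.3. On chromosome 9 the median was -0.42, and 406 of 498 genes (81.5%) were lower. This held for each pair of a resistant and a parental library, at -0.41 to -0.44, while the libraries of a group differed by 0.00. The lowest windows lay between 90 and 120 Mb, with medians of -0.66, -0.68 and -0.72. The first 10 Mb of chromosome 19 had a median of -0.50 (151 of 172 genes lower), and chromosomes 10 and 7 had medians of -0.24 and -0.21. On chromosome 20 the median was 0.21, with 0.60 and 0.70 in the windows from 10 to 30 Mb. Between the lines on drug, these 2 windows had smaller medians of 0.17 and 0.32. The lowest chromosome 9 windows were at -0.87, -0.84 and -0.85 on drug. Of genes over 1 log2 unit lower and placed in a window, 26.3% lay in windows below -0.3, against 10.6% of all placed genes. These windows were picked by the same fold changes, so an excess in them was favoured in advance. TNC rose although its window had a median of -0.72. DNA copy number was not measured, and its part in these medians was not tested.

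**Figure D3:**
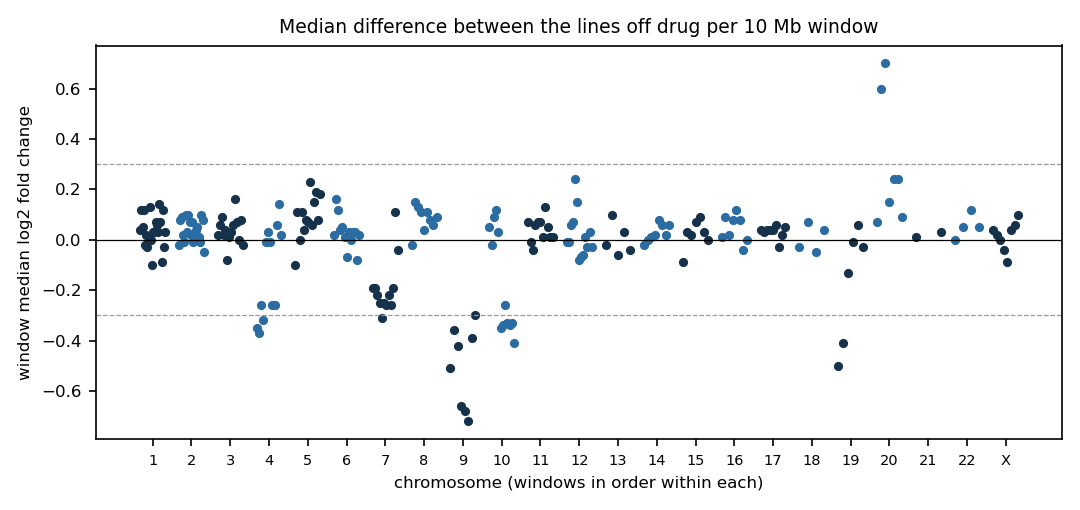
Median log2 fold change, resistant untreated over parental untreated (y axis), of each of the windows of 10 Mb, grouped by chromosome in order of position (x axis), with 1 point per window and dashed lines at -0.3 and 0.3. Windows below -0.3 are seen on chromosomes 4, 7, 9, 10 and 19, and 2 windows of chromosome 20 stand above the rest.

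The line difference was then read in the libraries on drug, which share no sample with those off drug and in which the length of exposure differed between the lines. On drug 34.6% of all genes were higher and 34.9% lower in resistant cells. Of the 1155 genes over 1 log2 unit higher off drug, 1084 (93.9%) were also called higher on drug, and their median was 1.91 off drug and 2.2 on drug. Of the 680 genes over 1 log2 unit lower, 278 (40.9%) were also lower on drug, 343 were not called and 59 were called higher, and the median went from -1.33 to -0.45. Whether the shares for rises and falls differ was not tested. Off drug, 41.6% of the large rises and 66.3% of the large falls were in genes under 1 CPM in both groups. Among the large falls the line effect was called smaller on drug in 328 and larger in 18. Among the large rises it was called smaller in 215 and larger in 206. Both sets were chosen by their off-drug fold change, which also enters this difference. A smaller effect on drug, in these counts and in the medians, was therefore favoured in advance. How far this applies was not tested. The difference between the line effects was itself called for 8351 genes (50.1%), of which 1296 (7.78% of all genes) reached 1 log2 unit.

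Gene groups behaved differently in this respect. Among antiviral genes 44 of 48 were still higher on drug, but the median was 1.90 rather than 3.0. OAS1 was at a mean of 0.263 CPM in parental and 3.33 CPM in resistant cells on drug (log2 fold change 3.67), a line effect smaller by 3.92 log2 units than off drug, and MX1 had a line effect smaller by 3.33. For MHC class I genes 10 were higher and 8 lower on drug (median 0.04), and HLA-B was at 867.8 and 855.1 against 1575 and 1602 CPM off drug and at means of 927.8 against 581.0 CPM on drug. Of the chemokine list 26 of 26 were higher on drug (median 1.44), including both members that were lower off drug, such as IL18 (-0.20 off and 0.29 on drug). Of the mesenchymal list 13 of 15 were higher on drug (median 1.16), and AXL turned from -0.14 to 0.18. Mitotic genes were lower in 26 of 30 on drug (median -0.40) and cholesterol genes in 23 of 28 (median -0.45). DNA replication genes were no longer on one side, with 10 higher and 13 lower. Mitochondrial genome genes turned from 9 of 13 lower off drug to 12 of 13 higher on drug, and the share of gene reads from the mitochondrial genome was 4.19% and 4.33% in parental and 3.0% and 3.45% in resistant libraries off drug, and 2.61% and 2.24% against 3.84% and 3.52% on drug.

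**Figure D4:**
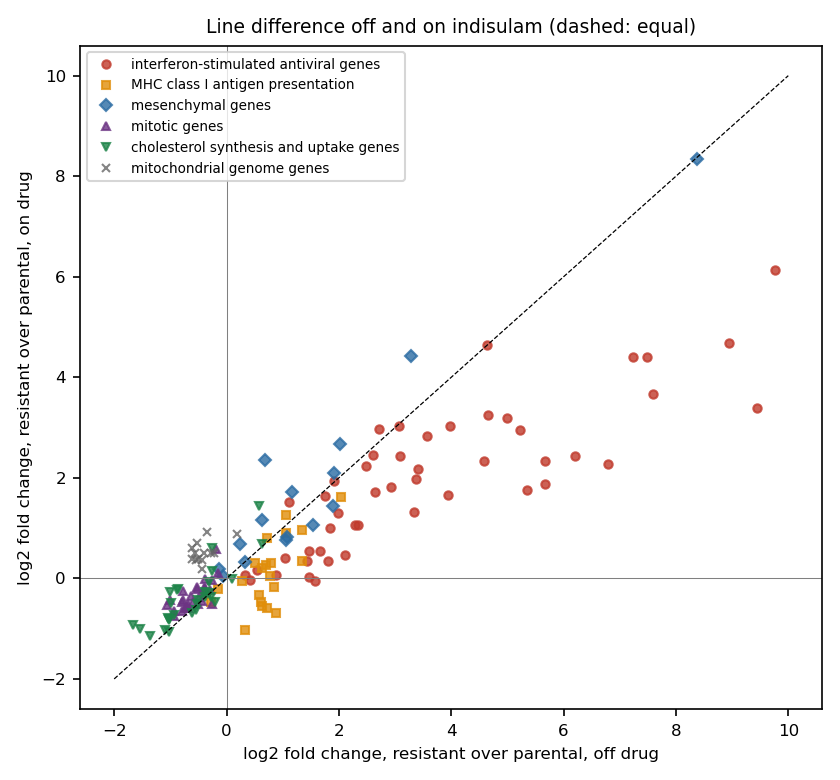
Log2 fold change between the lines on drug (y axis) against off drug (x axis) for members of 6 gene lists, with 1 point per gene and a dashed line of equal values. Antiviral genes lie mostly below the line, with medians of 3.0 off and 1.90 on drug, mesenchymal genes lie near it, and most mitochondrial genome genes lie below 0 off drug and above 0 on drug.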

How the data were processed

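PolyA RNA-seq libraries of 4 groups with 2 libraries each were used. The deposited files hold whole-number read counts per gene, which the authors made without normalization. The submitters' processing notes name HISAT2 2.2.1, Picard, HTSeq and GRCh38. The annotation release and the strand setting of the counting are not given in the sources used here, so reads of genes with shared exons may be misassigned. The 9 summary lines were left out of library sizes and tests. Of 60675 gene identifiers 60419 matched GENCODE v44, which gave symbols and coordinates. Groups were taken from the labels.

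All 8 libraries were fitted with edgeR 4.0.16 (R 4.3.3) by the robust quasi-likelihood test with TMM scaling and 4 residual degrees of freedom, after the edgeR low-count filter (filterByExpr) had kept 16661 genes. A gene with few reads in 1 group could pass this filter through another group, and the list counts include such genes. P-values were adjusted over the 16661 genes by Benjamini-Hochberg, and genes with an adjusted p under 0.05 were called. With 2 against 2 libraries an exact permutation test of a single gene cannot go below 0.333. Values after ± are standard errors of the log2 fold change. Intervals are exact at 95%, and floors are 3 reads over a group. The libraries held 65266253 to 108002436 gene reads. In simulated data for this comparison (16227 genes), 67 genes were changed by 0.5 log2 units, 67 by 1 unit and 66 by 2 units. Of these, 85.1% were recovered at 0.5 units and all 67 at 1 unit, and 11.2% of calls were false. In the measured data 60.1% of genes were called. Whether the recovered and false shares hold for those calls, or for genes with few reads, was not tested.

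The gene lists and comparisons were chosen with earlier results of these data known. Named genes were the 12 largest rises and falls of protein-coding genes with at least 5 CPM. In each list they were the 3 largest rises and falls with at least 1 CPM, together with preset anchor genes that had enough reads to test. Other list members were named after their values were seen, and some members are counted in the lists but not reported by name here. List counts without shifted windows were also a description made with the values known. Alternatives covered scaling, filtering, tools (DESeq2 1.42.0), thresholds, depth, the replicate block and each library left out.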

Additional observations from a re-analysis of the deposited data

Results flagged for a closer look

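For 39 named genes the difference between the lines was itself different off and on drug, by at least 1 log2 unit in edgeR's interaction test with Benjamini-Hochberg adjustment. Values are the log2 line effect off drug minus that on drug, and 7.78% of all tested genes reached this size. Apart from the preset anchor genes, the named genes were chosen by the size of their off-drug difference, which favours larger effects off drug.

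Antiviral genes had larger line effects off drug. The difference was 6.07 for MX2, 4.52 for IFI6, 4.25 for CMPK2, 3.92 for OAS1, 3.63 for EPSTI1, 3.33 for MX1, 3.08 for OAS2 and 2.83 for XAF1. For LAMP3, which is not in the antiviral list, it was 1.88. The sensors IFI16 (1.82), IFIH1 (1.54) and RIGI (1.04) had the same sign, as did TAP1 (1.01), HLA-B (1.56) and B2M (1.18). The values for MX2, CMPK2 and EPSTI1 rest on at most 3 reads in each parental untreated library. The ligand IFNE had the opposite sign (-1.36).

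Identity and junction genes mostly had line effects that were higher on drug. The difference was -3.60 for AGR2, which had 20 reads in the parental and 3 in the resistant untreated libraries, -2.69 for KRT17, -1.34 for ELF3, -1.33 for CLDN1 and -1.15 for LOXL2. LOXL2 shares exons with ENTPD4, to which 98.3% of their joint reads were assigned. The blood markers HBB and CSF1R gave 2.27 and -1.39.

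Matrix and signalling genes were found on both sides. Positive values were 1.37 for ITGB8, 1.09 for INHBA and 1.05 for TGFBI. Negative values were -1.75 for NOTCH3, -1.57 for COL9A2, -1.39 for COL17A1, -1.23 for JAG2, -1.19 for COL16A1 and -1.07 for SPRED3. Among stress, death and metabolic genes the values were -1.59 for PHLDA3, -1.5 for CA9, -1.43 for GSDMC, -1.08 for ASNS, -1.22 for MT-ATP8, -1.08 for MT-CO3 and -1.01 for MT-ND2. CA9 shares exons with ARHGEF39, to which 96.1% of their joint reads were assigned. The off-drug calls of MT-ND2 and MT-CO3 depended on single libraries, as given above.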

How the results depend on the processing

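The counts given were 10021 genes called, 1155 and 680 past 1 log2 unit higher and lower, 656 list genes called, 1362 large differences found the same way on drug and 8351 genes whose line effect differed. With a mean of at least 1 CPM, 597 and 191 genes were past 1 log2 unit higher and lower, and 736 were found the same way on drug, as fewer genes were tested. With glmTreat against 0.5 log2 units, 2582 genes, 273 list genes and 908 differences of the line effect were called, and 60.3% of the calls were higher rather than 50.4%. With library totals alone 45.9% of the calls were higher. With the DESeq2 Wald test 4634 genes were higher and 3801 lower (54.9% higher), and 442 genes were past 1 log2 unit lower, and the cause was not tested. Leaving out a library gave 8656 to 9515 called genes, 1166 to 1185 and 564 to 736 past 1 log2 unit, 586 to 626 list genes, 1357 to 1372 found on drug and 7235 to 8329 line-effect differences. With the replicate block the same counts were 9865, 1149, 671, 647, 1359 and 8206, and the replicate numbers did not pair the samples (correlations from -0.192 to 0.137). EGFR turned to -0.01 with library totals. Leaving out a library gave -0.00 to 0.05 for EGFR, -0.10 to 0.02 for S100A2 and -0.03 to 0.02 for BCL2L1, none of them called as reported. Genes with few reads and the spread between 2 technical libraries limit all these values.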
